A study of Mus musculus with 8 samples.

Results

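The SLAM family is a group of 9 surface receptors of blood cells: Slamf1, Cd48, Cd244, Ly9, Cd84, Slamf6, Slamf7, Slamf8 and Slamf9. They were taken as a gene family, through every probe set that the platform annotation gives to exactly 1 of these genes. That yielded 15 probe sets, with at least 1 for each of the 9 genes, among 34945 probe sets and 18193 genes annotated in this way. The receptors were measured in lympho-myeloid multipotent progenitors sorted from bone marrow of female C57BL6 mice aged 8 to 10 weeks. The 4 wild type and 4 FLT3-ITD samples differ in an internal tandem duplication of the receptor tyrosine kinase gene Flt3, and no other allele or agent is named. Per the labels, the sorted cells of both genotypes lacked lineage markers, carried Sca-1, c-Kit and CD48, and did not carry CD150. CD48 and CD150 are the proteins of Cd48 and Slamf1, so the sort itself selected on members of the family in both genotypes. The number of FLT3-ITD alleles, how the allele was made, the animals per sample and the lineage antibodies are not given in the sources used here.

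SLAM receptors are immunoglobulin-type surface proteins through which blood cells touch each other. Most bind a copy of themselves on the neighbouring cell, while CD48 is the ligand of CD244 and also binds CD2. Several carry tyrosine motifs in their tails that recruit the small adaptor SAP, encoded by Sh2d1a, or its relatives, and in their absence phosphatases. CD48 has no such tail, being held in the membrane by a lipid anchor. In mouse bone marrow, CD150 marks stem cells, whereas CD48 marks progenitors that have left the stem cell state, which is why this pair is used in sorting.

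The replicates are numbered 1, 2, 3 and a second 1 with the tag 037, called replicate 037 here. What that tag means is not stated in the labels, and it may repeat replicate 1. The correlation across probe sets between both was 0.969 in wild type and 0.953 in FLT3-ITD, and each replicate 1 array had a higher one with some other array (up to 0.973 and 0.959). Nothing in the labels ties replicates to separate animals, and p-values then measure only the spread between these samples. FLT3-ITD replicate 1 stood apart, with r between 0.948 and 0.959 to each other array. The array of FLT3-ITD replicate 037 showed the widest log2 gap of Gapdh signal between its 3′ and 5′ ends, a measure of RNA integrity, at 2.99 where the other arrays had 1.82 to 2.29. Values are log2 expression per probe set after RMA, and the array medians lay between 5.98 and 6.05. In such bulk samples more cells with a transcript and more transcript per cell cannot be told apart.

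Genes of the gate and of neighbouring surface markers read as follows. Kit, the c-Kit receptor, averaged 9.61 ± 0.23 in the wild type samples and 9.14 ± 0.25 in the FLT3-ITD samples (SD, n = 4 each). Outside the gate that the labels name, Cd34 averaged 10.74 and 10.66, and Ptprc, the gene of CD45, 10.79 in both genotypes. Fcgr3 averaged 6.68 and 6.70, and Eng 7.99 and 7.73. Il7r, above the array median on only 2 wild type arrays, fell from 5.94 ± 0.75 to 3.45 ± 0.33, without overlap. Over the 7 genes of this list with a value, Flt3 among them, the mean log2 value did not overlap. It was 8.77 to 8.98 in wild type and 8.23 to 8.30 in FLT3-ITD. The gene of Sca-1, Ly6a, was not analysed here. All 3 probe sets of Slamf1, the gene of the excluded CD150, stayed below the array median on all 8 arrays. Of 11 lineage antigen genes, 7 had a value, and 5 of these (Cd3e, Cd8b1, Cd5, Ms4a1 and Itgam) were below the median on every array. Cd4 and Cd8a lay above it on every array, at 6.48 ± 0.06 and 6.33 ± 0.34 in wild type, and neither was called.

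The comparison asked how the transcripts of these receptors differ between FLT3-ITD and wild type progenitors sorted by the same surface markers. Cd48 and Slamf7 rose in FLT3-ITD, each about doubled, and both sets of values were clear of the wild type range. Slamf8 was higher in every FLT3-ITD sample by a wider margin, from a dim start, and lay at the edge of the threshold. Cd244, the receptor of CD48, and Ly9 and Cd84 had lower means without passing the test. Slamf1, Slamf6 and Slamf9 were dim in both genotypes.

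Each gene was represented by its probe set of highest mean and tested with limma if that probe set exceeded the array median on at least 4 arrays. This left 5 of the 9 members among 10762 genes: Cd48, Cd244, Ly9, Cd84 and Slamf7. Past a Benjamini-Hochberg adjusted p of 0.05 were Cd48 and Slamf7, both higher, where 0.604% of all tested genes were called and 0.427% were called higher. Slamf7 entered that comparison only through its FLT3-ITD values, so the count among tested members is biased upward. A second fit therefore took all 45037 non-control probe sets with no filter. It called 2 of the 15 SLAM probe sets, the same ones of Cd48 and Slamf7, against 0.14% of all probe sets. The 15 differences comprised 7 positive and 8 negative, with a median of −0.01 against 0.01 over all probe sets. The genotypes did not overlap in 6 of the 15, against 5.17% of all probe sets.

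**Figure D1:**
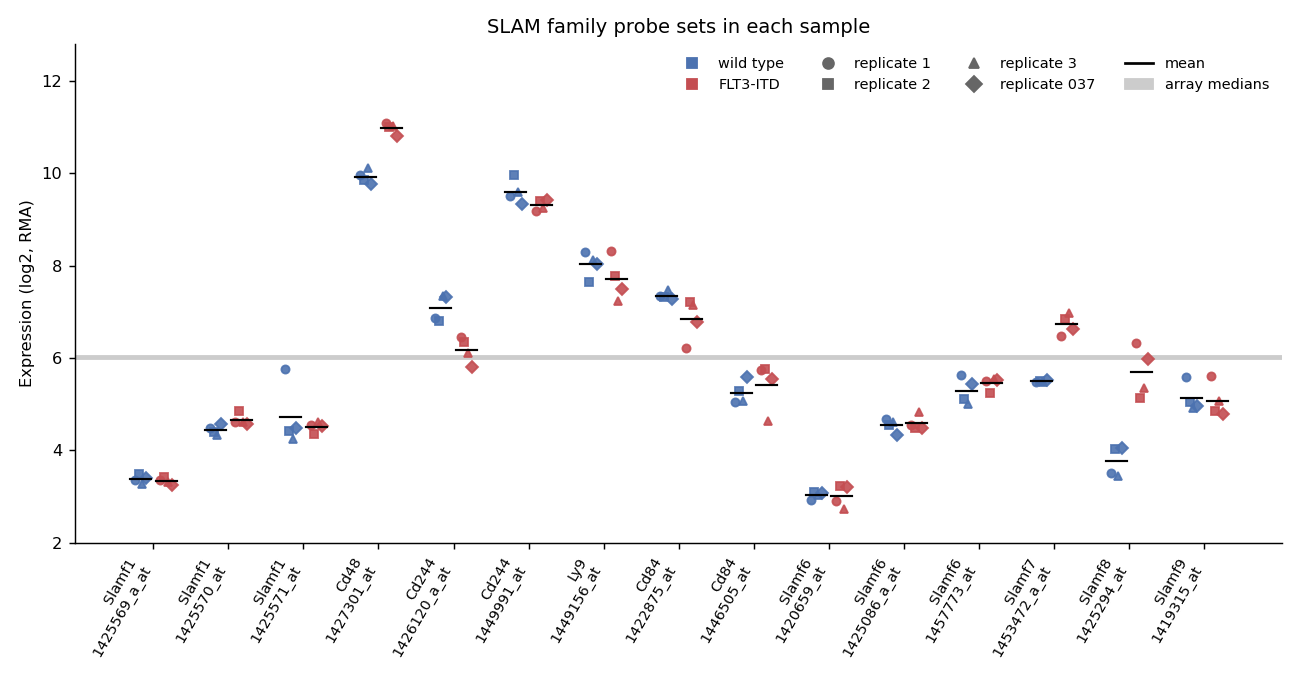
Expression (log2, RMA) of the 15 SLAM family probe sets in each of the 8 samples. Blue points are wild type and red points FLT3-ITD, marker shapes give the replicate, black lines the mean of 4 and the grey band the range of array medians; the red points of Cd48, Slamf7 and Slamf8 all lie above their blue points, and the probe sets of Slamf1, Slamf6 and Slamf9 lie below the band.

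Cd48 encodes the lipid-anchored ligand that the sort required on the cell surface. In wild type its probe set 1427301_at read 9.97 in replicate 1, 9.85 in replicate 2, 10.11 in replicate 3 and 9.76 in replicate 037. The FLT3-ITD samples read 11.08, 10.99, 11.01 and 10.82 in the same order. The lowest FLT3-ITD value thus lay above the highest wild type value. On average Cd48 went from 9.92 ± 0.15 to 10.98 ± 0.11 (SD, n = 4 each; exact two-sided permutation p = 0.0286, the smallest that 4 against 4 allows). The rise was 1.06 ± 0.13 on the log2 scale (SE), or 2.08-fold (limma adjusted p = 0.0074). Leaving out any single sample kept it past the threshold among the filtered genes, with differences of 1.00 to 1.12 and adjusted p of 0.0173 to 0.0395. Without both FLT3-ITD replicates 1 and 037, an alternative chosen after seeing the data, the difference was 1.08 with limma adjusted p = 0.0615. Over all unfiltered probe sets the limma adjusted p was 0.0178, and it exceeded 0.05 without wild type replicate 1 (0.0606) or 2 (0.0781) or FLT3-ITD replicate 2 (0.0712) or 3 (0.0615).

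Slamf7 encodes a self-binding receptor, also called CRACC or CS1, known from natural killer cells, plasma cells and activated myeloid cells. Its single probe set, 1453472_a_at, read 5.47, 5.51, 5.49 and 5.52 in wild type replicates 1, 2, 3 and 037, all under the array medians. In FLT3-ITD the same replicates read 6.47, 6.84, 6.97 and 6.64, all over the medians. The wild type values were almost identical, and the genotypes stood about 1 log2 unit apart at their nearest. Slamf7 rose from 5.50 ± 0.02 to 6.73 ± 0.22 (SD, n = 4 each; exact permutation p = 0.0286), by 1.23 ± 0.13 (SE) or 2.35-fold in the unfiltered fit (limma adjusted p = 0.011). RMA compresses differences near background, so a fold from so dim a start may be understated. Over the unfiltered probe sets its adjusted p exceeded 0.05 when wild type replicate 1 (0.0527), 2 (0.0559) or 3 (0.0604) or FLT3-ITD replicate 2 (0.0559) was left out, while the difference stayed between 1.15 and 1.32.

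Slamf8 encodes a receptor of myeloid cells, known in mouse macrophages for restraining reactive oxygen production and migration. Its probe set 1425294_at read 3.50, 4.02, 3.45 and 4.05 in wild type replicates 1, 2, 3 and 037. The FLT3-ITD values were 6.31, 5.14, 5.34 and 5.97, of which only that of replicate 1 exceeded the array median. Every FLT3-ITD sample was higher than every wild type sample, and the top values came from replicates 1 and 037, the arrays that stood apart in overall profile and in the Gapdh gap; the part of either in this difference was not tested. The means were 3.76 ± 0.32 and 5.69 ± 0.55 (SD, n = 4 each; exact permutation p = 0.0286), and the difference was 1.94 ± 0.28 (SE), or 3.82-fold between dim values. Over all probe sets it did not pass (limma adjusted p = 0.0584), whereas with 1 probe set per gene and no filter it passed at 0.0316 and after cyclic loess normalization at 0.0493. Without FLT3-ITD replicate 1 the difference was 1.73, with limma adjusted p = 0.0697.

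**Figure D2:**
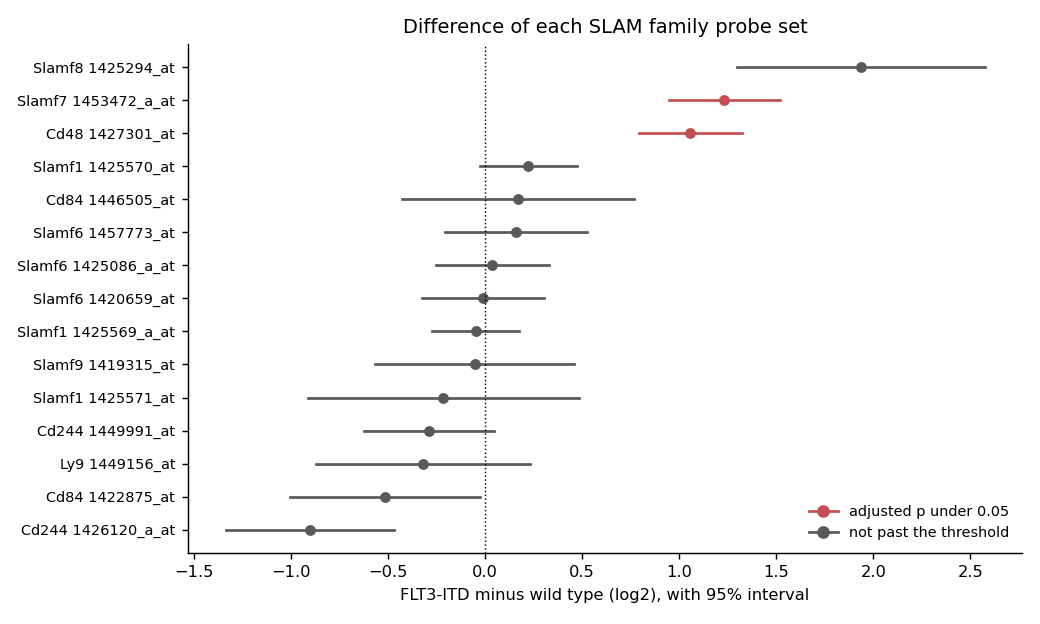
Difference between FLT3-ITD and wild type (log2) for each of the 15 SLAM family probe sets, as points with 95% intervals from the limma fit over all non-control probe sets. The points in red, Slamf7 at 1.23 and Cd48 at 1.06, passed the adjusted threshold; Slamf8 at 1.94 had a wider interval and did not.

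Cd244 encodes 2B4, the receptor for CD48, and was read by both a bright and a dimmer probe set. The bright probe set 1449991_at gave 9.51, 9.96, 9.60 and 9.34 in wild type replicates 1, 2, 3 and 037, and 9.18, 9.39, 9.24 and 9.43 in the FLT3-ITD ones. These ranges overlapped, with a difference of −0.29 (95% interval −0.63 to 0.04; limma adjusted p = 0.692 over all probe sets). The dimmer 1426120_a_at gave 6.86, 6.80, 7.33 and 7.32 in wild type and 6.44, 6.34, 6.10 and 5.81 in FLT3-ITD. Here every FLT3-ITD value was lower, the lowest being replicate 037 with its high Gapdh gap, but the difference of −0.90 ± 0.19 (SE) did not pass (limma adjusted p = 0.181). Without FLT3-ITD replicate 037 it was −0.78. The gap between both probe sets did not differ detectably between genotypes (−0.61; exact permutation p = 0.143), so the data do not settle whether they disagree. As the mean of both, Cd244 differed by −0.60 (limma adjusted p = 0.0613). Cd48 and the transcript of its receptor therefore had differences of opposite sign, of which that of Cd48 passed.

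Ly9 and Cd84 encode self-binding receptors with adaptor-recruiting tails, known from lymphocytes and, for Cd84, also from mast cells and platelets. Ly9 read 8.30, 7.64, 8.13 and 8.02 in wild type replicates 1, 2, 3 and 037, and 8.32, 7.76, 7.24 and 7.50 in FLT3-ITD. FLT3-ITD replicate 1 matched the highest wild type sample, and the genotypes overlapped. The difference was −0.32 (95% interval −0.87 to 0.23; limma adjusted p = 0.801), and −0.52 without FLT3-ITD replicate 1. Cd84 on its brighter probe set 1422875_at read 7.34, 7.32, 7.46 and 7.27 in wild type and 6.21, 7.22, 7.14 and 6.77 in FLT3-ITD. All FLT3-ITD values were lower, replicate 1 by far the lowest. The difference was −0.52 (95% interval −1.01 to −0.03; limma adjusted p = 0.607) and shrank to −0.31 without FLT3-ITD replicate 1. On the other probe set, 1446505_at, which was below the array median throughout, Cd84 differed by 0.17 in the opposite direction (95% interval −0.43 to 0.77).

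Slamf1 encodes CD150, which the sort excluded, and its 3 probe sets were dim in both genotypes. On 1425569_a_at the values ranged from 3.27 to 3.49 in wild type and from 3.25 to 3.41 in FLT3-ITD. On 1425570_at wild type read 4.48, 4.39, 4.33 and 4.56 and FLT3-ITD 4.62, 4.85, 4.62 and 4.57. Those groups just failed to overlap, with a difference of 0.22 (95% interval −0.03 to 0.47; limma adjusted p = 0.674). On 1425571_at wild type replicate 1 read 5.75, while the other 7 samples lay between 4.24 and 4.61. Its difference of −0.21 (95% interval −0.91 to 0.48) became 0.13 without that sample, so this probe set gave no stable sign.

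Slamf6, a self-binding receptor also called Ly108 in the mouse, and Slamf9, a short-tailed relative of Slamf8, were below the array medians on every array. The probe sets of Slamf6 spanned 2.72 to 3.23 on 1420659_at, 4.33 to 4.83 on 1425086_a_at and 5.01 to 5.63 on 1457773_at. Their differences were −0.01, 0.04 and 0.16, with 95% intervals from −0.33 at the lowest to 0.53 at the highest. Slamf9 read 5.59, 5.04, 4.91 and 4.97 in wild type and 5.61, 4.84, 5.06 and 4.77 in FLT3-ITD, with replicate 1 the highest in both. The genotypes overlapped throughout, and Slamf9 differed by −0.05 (95% interval −0.56 to 0.46; limma adjusted p = 0.972).

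All 9 genes lie on mouse chromosome 1, as RefSeq's assembly GRCm38.p6 lists them. Among protein-coding genes measured on the array, Cd244, Ly9, Slamf7, Cd48, Slamf1, Cd84 and Slamf6 follow each other without interruption, and Slamf9 and Slamf8 lie apart further along. Cd48 and Slamf7 are next to each other in that order, on opposite strands, with their starts toward each other. The genes flanking them on the other sides did not pass: Ly9 differed by −0.32, and the 3 Slamf1 probe sets by −0.05, 0.22 and −0.21. Of 16 further genes within 3 places of a SLAM gene, 8 were tested and none passed by limma. The largest difference among these 16 was in F11r, a junctional adhesion molecule gene below the filter. F11r read 7.69 in FLT3-ITD replicate 1 and 5.92 to 6.03 in the other FLT3-ITD samples, against 5.35 to 5.62 in wild type (difference 0.92; limma adjusted p = 0.6 over all probe sets).

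**Figure D3:**
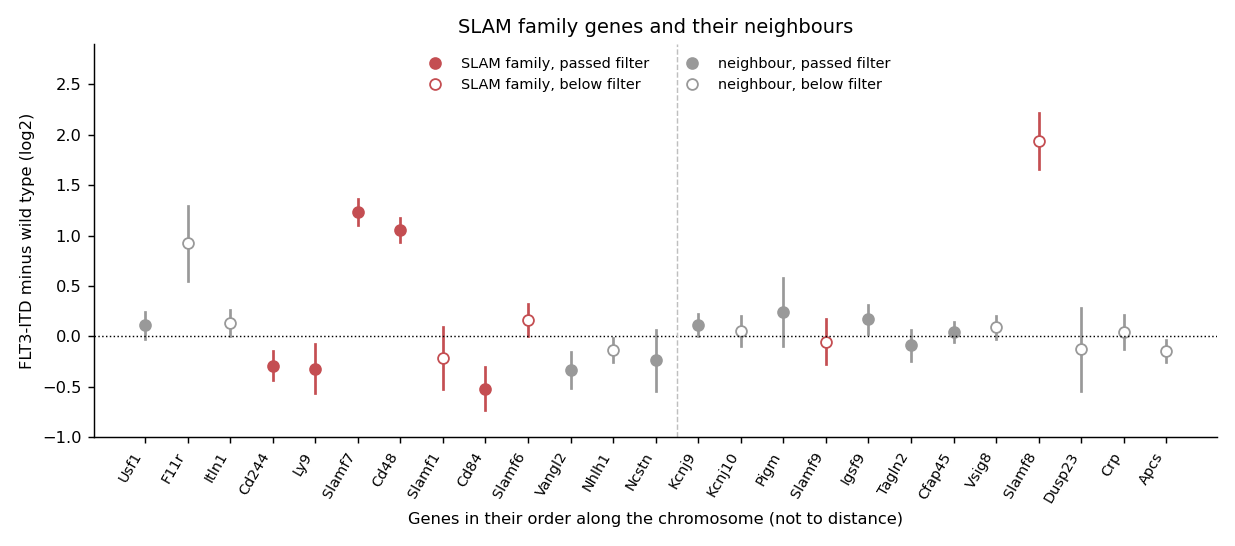
Difference between FLT3-ITD and wild type (log2, points with SE bars) for SLAM family genes (red) and up to 3 measured neighbours on each side (grey), in their order along the chromosome. Filled points passed the filter on dim probe sets and open points did not, the dashed line marks where genes in between are left out, and Slamf7 and Cd48 stand above their neighbours while Slamf8 stands alone at 1.94.

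The promoters of this neighbouring pair are shown because both transcripts were called higher in FLT3-ITD. RefSeq promoter windows of 300 bases were found for 8 of the 9 genes. These were searched on both strands for 7 short motifs known from blood transcription factors, each given here with the share of 32851 promoters of the same length that hold it. The STAT letters TTCNNNGAA were held by 8.3% of promoters, and the RUNX letters TGTGGT by 16.8%. The PU.1 letters GAGGAA were held by 28.3%, and the composite letters of ETS with IRF factors, which may overlap them, GGAANNGAA, by 8.24%. The AP-1 letters TGANTCA were held by 7.81% of promoters, the GATA letters AGATAA by 11.2% and the letters of C/EBP factors, TTGCNNAA, by 10.8%. Windows are printed 5′ to 3′ on the gene's strand, with matches in capitals. That of Cd48 is chr1:171681742-171682041, plus strand, and that of Slamf7 is chr1:171648950-171649249, minus strand, both in GRCm38.p6.
Cd48: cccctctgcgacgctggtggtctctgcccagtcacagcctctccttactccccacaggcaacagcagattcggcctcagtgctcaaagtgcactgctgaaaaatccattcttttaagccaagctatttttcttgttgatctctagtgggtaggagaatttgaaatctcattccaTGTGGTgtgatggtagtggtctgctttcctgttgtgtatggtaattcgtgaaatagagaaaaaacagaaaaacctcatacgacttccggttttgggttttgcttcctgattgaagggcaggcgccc
Slamf7: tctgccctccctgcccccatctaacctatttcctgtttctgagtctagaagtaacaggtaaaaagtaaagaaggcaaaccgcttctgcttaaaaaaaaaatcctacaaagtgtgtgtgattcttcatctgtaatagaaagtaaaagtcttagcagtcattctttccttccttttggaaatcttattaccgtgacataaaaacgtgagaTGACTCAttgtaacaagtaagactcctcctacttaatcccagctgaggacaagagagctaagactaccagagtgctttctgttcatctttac
The Cd48 window held 1 match, to the RUNX letters, and the Slamf7 window 1 match, to the AP-1 letters. These windows thus shared none of the 7 motifs. The STAT letters had no match in any of the 8 windows, which says only that these letters are not in them. Slamf8 held 1 match each to the PU.1 and AP-1 letters. So did Cd244, with 1 more to the C/EBP letters, and Cd84, with 1 more to the RUNX letters. Slamf9 held 1 match, to the PU.1 letters, and Slamf1 and Slamf6 held no match.

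Likeness of profile was measured as the root mean square gap between centred log2 values over the 8 samples, among all tested genes. Slamf7 was the closest gene to Cd48, at 0.204, followed by Ppic (0.209), Pofut2 (0.218), Poc1a (0.221) and Fut8 (0.226). Of these, Ppic encodes a cyclophilin and Pofut2 and Fut8 fucosyltransferases. For Slamf7 the closest was Irak1bp1 at 0.159, then Cd48, Maoa (0.212), Psap (0.238) and Reps1 (0.246). Psap encodes the precursor of the lysosomal saposins and Maoa a monoamine oxidase. All 8 genes named beside this pair had positive differences, of 0.81 to 1.29, since the measure picks genes that share the step between genotypes. Among the 4 samples of each genotype Cd48 and Slamf7 ran less alike: in FLT3-ITD Cd48 was highest in replicate 1 and Slamf7 lowest there.

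**Figure D4:**
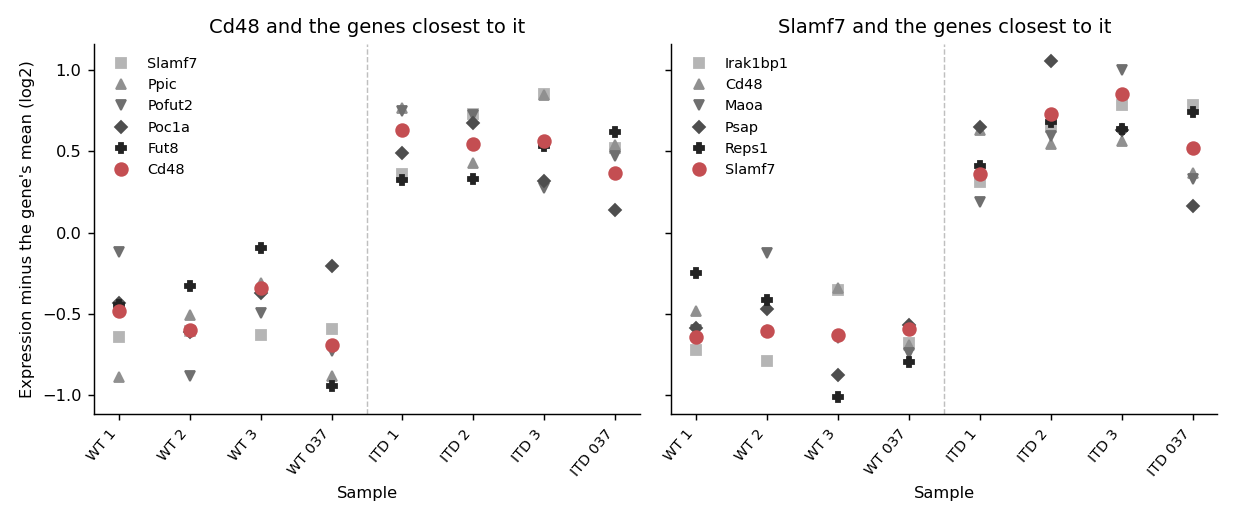
Expression of Cd48 (left) and Slamf7 (right), in red, and of the 5 tested genes with the smallest root mean square gap to each, in grey, as log2 values minus each gene's mean in the 8 samples. All wild type points (WT) lie below 0 and all FLT3-ITD points (ITD) above it.

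No partner of the receptors passed the test. Of 25 genes of ligands, adaptors, kinases, phosphatases and downstream proteins, 20 had a value, 16 were tested and none passed by limma, in either direction, with 3 at an unadjusted p under 0.05. Over all 10762 tested genes, 1031 were at that unadjusted level. The median difference of the 16 was −0.09, against 0.02 over all tested genes. Cd2, the other partner of CD48, was below the filter, with wild type samples at 5.53 ± 0.15 and FLT3-ITD samples at 5.58 ± 0.33 (SD, n = 4 each). The adaptor gene Sh2d1a was below the array median on all arrays, at 4.48 ± 0.08 and 4.46 ± 0.04. Fyn, the kinase that SAP brings to the receptors, differed by −0.11 (95% interval −0.81 to 0.58). The smallest p-values were those of Plcg1, a phospholipase, at −0.72 ± 0.29 (limma adjusted p = 0.477), Sh3bp2 at −0.33 ± 0.14 (0.5), Dok1 at −0.36 ± 0.16 (0.509) and Ptpn6, the phosphatase SHP-1, at −0.41 ± 0.24 (SE; 0.647). Flt3, whose product carries the duplication, fell by 1.17 ± 0.20 in log2 terms (SE; adjusted p = 0.0406 from limma).

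Because SLAM receptors also mark mature blood cells, marker lists of those cells were read in the same samples, as linear values summed over each list. Some dendritic cell markers were higher in the same samples as Cd48, Slamf7 and Slamf8. With values for 9 of 10 genes, their summed level was 1037 to 1204 in wild type and 6887 to 14980 in FLT3-ITD. Of 7 tested, 4 were called higher, namely Cd74 and the MHC class II genes H2-Aa, H2-Ab1 and H2-Eb1. These 4 averaged 10.57 to 11.79 in FLT3-ITD and made up most of that sum, as Zbtb46, the next brightest, averaged 8.05. Of the other 3 tested, Zbtb46 differed by 2.38, Siglech by −0.02 and Ccr9 by −0.40 (limma adjusted p = 0.124, 0.97 and 0.509). In the same list Xcr1, below the filter, read 4.65 ± 0.15 and 6.51 ± 1.03, Itgax, the gene of CD11c, read 4.97 ± 0.25 and 6.21 ± 0.45 and Siglech 6.22 ± 0.12 and 6.20 ± 0.02. Natural killer cell markers, with 6 of 7 measured, summed to 673 to 954 in wild type and 827 to 1159 in FLT3-ITD, which overlap. Their mean log2 value was 5.31 to 5.70 and 5.80 to 6.14, without overlap. The 2 tested, Nkg7 and Prf1, differed by 0.30 and −0.07 (limma adjusted p = 0.674 and 0.939). Their defining members Ncr1 and Gzma were below the array median everywhere. Klrk1, alone among the 6 in having no overlap between genotypes, averaged 3.68 ± 0.37 and 5.81 ± 0.98. Plasma cell markers, with 5 of 5 measured, summed to 389 to 623 in wild type and 391 to 615 in FLT3-ITD, with Jchain, Prdm1 and Tnfrsf17 below the median throughout while Sdc1 fell by 1.58 (limma adjusted p = 0.0335). Monocyte and macrophage markers, with 9 of 10 measured, spanned 704 to 838 and 667 to 1463, with Adgre1, Mrc1 and Cd14 below the median throughout. The 2 tested were not called, Csf1r differing by 0.96 ± 0.60 and Cd68 by 0.26 ± 0.22 (SE; limma adjusted p = 0.676 and 0.771). Stem cell markers, with 8 of 9 measured, summed to 2764 to 3552 in wild type and to 1756 to 2724 in FLT3-ITD, without overlap. The mean log2 value of these 8 was 7.20 to 7.53 and 6.79 to 7.34, which overlap. All 5 tested had negative differences, none was called by limma, and 2 were at an unadjusted p under 0.05: Hlf at −1.19 ± 0.33 (limma adjusted p = 0.247) and Gata2 at −0.48 ± 0.17 (SE; 0.417). Among all 10762 tested genes, 1031 had an unadjusted limma p under 0.05. Fgd5, below the filter, read 4.70 ± 0.91 and 5.93 ± 0.27. The part of any of these cell types in the differences of Cd48, Slamf7 or Slamf8 was not tested. Markers of T cells, B cells, megakaryocytes, and mast cells or basophils held no called gene by limma, among 2, 2, 2 and 3 tested, with 1, 0, 0 and 0 at an unadjusted p under 0.05. Their summed levels overlapped between genotypes.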

How the data were processed

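Expression was measured on 8 arrays, 1 per sample, in 4 wild type and 4 FLT3-ITD samples. Trizol-extracted RNA was amplified with a NuGEN Pico kit and biotin-labelled, per the labels' protocols. The authors deposited log2 expression per probe set, made with RMA per the submitters' processing notes (version not given in the sources used here). RMA corrects background, equalizes arrays and compresses differences near background. Scanner signal was not analysed here, and the number of arrays limits the precision.

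The table held 45101 rows, 64 of them controls. The platform annotation gave 1 gene to 34945 probe sets, several to 932 and none to 9160; 34741 took their current symbol through the Entrez ID from a RefSeq table of GRCm38.p6. Cd244 is listed there as Cd244a. Genotypes were compared with limma 3.58.1 in R 4.3.3, with no covariate, over 10762 filtered genes and over 45037 probe sets, with Benjamini-Hochberg adjustment over all of them; adjusted p-values in the text are from limma. The procedure was tested on simulated data. For single values, exact permutation tests (two-sided) were run. Figures were drawn with matplotlib 3.10.9. The named genes are all members, called list genes or the 4 of smallest p, the 5 closest profiles and 3 neighbours on each side. F11r, Cd2, Sh2d1a, Fyn, the gate and neighbouring surface genes besides Flt3, and the marker genes were picked after their values were seen. The members and lists were chosen with earlier results of these data known. Alternatives changed the normalization, the filter, the choice of probe set, the variance model, the array weights and the handling of replicate numbers and the tag 037, or left out each sample, where the filter asked for as many arrays as the smaller group holds. Same-numbered samples were not taken as pairs, since their deviations from the group means correlated at 0.027 to 0.11.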

Additional observations from a re-analysis of the deposited data

Results flagged for a closer look

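Of 84 groups of 4 values, 11 held 1 value set well apart from the rest, which chance alone does in about 1 of 20 groups. Among SLAM receptors, wild type replicate 1 was highest for Slamf1 probe set 1425571_at at 5.75, with the other wild type samples at 4.24 to 4.48. FLT3-ITD replicate 2 was lowest for Slamf6 probe set 1457773_at at 5.24, the others reading 5.51 to 5.54. Among partner and gate genes, FLT3-ITD replicate 1 was highest for Ptpn11 at 9.47 and Plcg2 at 10.06, and lowest for Plcg1 at 8.83 and Becn1 at 7.67. FLT3-ITD replicate 037 was highest for the kinase genes Fgr at 5.53 and Src at 6.41 and for Dok2 at 7.23. Wild type replicate 037 was highest for Inpp5d at 8.18, and FLT3-ITD replicate 2 lowest for Kit at 8.77.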

How the results depend on the processing

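With the replicate number as a block, 22 genes and 16 probe sets were called instead of 65 and 63, and 0 members in either fit; Cd48 then had limma adjusted p = 0.0572 and Slamf7 0.052 among the filtered genes, 0.131 and 0.134 among all probe sets. That block spends 3 degrees of freedom on numbers that were not shown to pair the samples. Samples numbered 1, 3 and 037 correlated best with their own number, and those numbered 2 with number 3. Without both FLT3-ITD replicates 1 and 037, chosen after seeing the data, 32 genes were called and 1 member, Slamf7. Leaving out single samples gave 31 to 57 genes with 2 members called each time, and 23 to 69 probe sets with 0 to 2 members. In these, the uncalled differences ranged from −0.38 to 0.13 for Slamf1 1425571_at, from −0.085 to 0.086 for Slamf6 1420659_at, from −0.045 to 0.081 for Slamf6 1425086_a_at and from −0.23 to 0.10 for Slamf9, so their signs were not stable. Slamf8 passed on cyclic loess values (0.0493) and with 1 unfiltered probe set per gene (0.0316). In the remaining alternatives run (tag 037 as a block, replicates 1 and 037 averaged, median centring, mean over probe sets, trend and robust variance, array weights) Cd48 stayed past the threshold in the gene fit, with adjusted p of 0.00308 to 0.0212, and no partner gene passed in any. Slamf7 met the filter only through FLT3-ITD, so its calls in the gene fit, also with samples left out, show nothing about stability. Unfiltered, its limma adjusted p was 0.0104 on cyclic loess values and 0.0347 with replicates 1 and 037 averaged. The median difference of all probe sets was 0.01 as deposited, 0.00102 on cyclic loess values and 0.0306 after median centring. Signal over background was not analysed here, so what limits the dim receptors Slamf1, Slamf6, Slamf8 and Slamf9 was not tested.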
